A study of Mus musculus with 4 samples.

Results

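The machinery that divides a cell was followed here through 42 genes for mitosis, the kinetochore and the spindle in 4 mouse mammary tumors. The genes were taken by name from a list, out of 23284 gene symbols in the deposited tables. They were not filtered by their values, but the list was made with earlier results of these data known. All 42 were found and reached 1 FPKM (fragments per kilobase of transcript, scaled to the mapped reads of the library) in every tumor, so the filter on low values removed none of them. They fall into 8 kinases and chromosomal passenger proteins, 8 spindle checkpoint and anaphase genes, 10 centromere and kinetochore genes, 6 spindle motors and microtubule binders, 7 cytokinesis genes and 3 chromatin and transcription genes.

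A dividing cell builds a bipolar spindle of microtubules, and each chromosome is held to it by kinetochores, protein plates assembled on centromeric chromatin. Aurora and Polo-like kinases drive spindle assembly, the spindle checkpoint holds back the anaphase-promoting complex until every kinetochore is attached, and separase then cuts the cohesin that joins sister chromatids. The genes of this machinery are transcribed together late in the cell cycle, under the MuvB complex with B-Myb and FOXM1, and their summed level in a tissue follows how many of its cells are cycling. In breast tumors Ki67 (Mki67) is the usual stain for cycling cells.

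Each tumor was a primary mammary carcinoma of a female mouse. Tumors 26043 and 26044 carried the genotype WapCre;Rank;Brca1;p53 and are called triple-mutant, and tumors 26048 and 26050 carried WapCre;Brca1;p53 and are called double-mutant. Floxed Brca1 and p53 were thus deleted in both groups, and the groups differed in the deletion of floxed Rank (Tnfrsf11a), the receptor for RANKL. The Cre line used (WapCreC) is active in luminal and basal epithelial cells of the mammary gland without need of pregnancy or doxycycline, so stroma, vessels and immune cells of the tumor keep all alleles. No treatment is named for these mice, and the study describes the genotypes as littermates. The age, strain and grade of each sequenced tumor are not given in the sources used here.

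Rank itself was listed at 2.07 and 0.962 FPKM in the triple-mutant tumors and at 10.6 and 11.9 FPKM in the double-mutant tumors. Brca1 lay between 3.26 and 5.69 FPKM and Trp53 between 15.7 and 149.7 FPKM over the 4 tumors, values over the whole gene that cannot check the loss of single exons. Only FPKM values were given, so the depth of each library is unknown. The summed FPKM ran from 690775 to 796031 per tumor and the top 20 genes held 12.9% to 19.2% of it.

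The tumors also differed in their cellular makeup by marker genes. The 8 epithelial markers summed to 3139, 388, 2436 and 2153 FPKM in tumors 26043, 26044, 26048 and 26050, so tumor 26044 stood apart with low Krt8, Krt18 and Epcam. The basal keratins Krt5 and Krt14 were at 42.5 to 611 FPKM in the triple-mutant tumors and at 1.15 to 6.99 FPKM in the double-mutant tumors. The 8 fibroblast markers summed to 206 and 123 FPKM in the triple-mutant tumors and to 901 and 433 FPKM in the double-mutant tumors. Of the 7 that passed the filter, 4 (57.1%, against 22.9% of all genes) were lower in the triple-mutant tumors without overlap. Dcn and Pdgfrb overlapped between genotypes, and Pdgfra went the other way, at 2.90 and 19.1 against 1.63 and 1.44 FPKM. The 10 leukocyte markers summed to 236 and 154 against 559 and 336 FPKM, with Csf1r and Cd14 overlapping between genotypes. The lymphocyte genes Cd3e, Cd3g and Cd79a were under 1 FPKM in every tumor. The 7 endothelial markers summed to 31.3, 97.4, 51.8 and 28.3 FPKM, in the same tumor order. The 6 adipocyte markers reached 213 FPKM in tumor 26048 against 6.70 to 26.1 FPKM in the others, and the 5 skeletal muscle markers reached 33.4 FPKM in tumor 26050 against 2.05 to 2.91 FPKM. The part of these cells in the results that follow was not tested, and in bulk tumors fewer cells of a type and less RNA per cell cannot be told apart.

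The mitotic genes formed an order of tumors more than an order of genotypes. Against each gene's own mean over the 4 tumors, on the scale of log2(FPKM + 1), the median of the 42 genes was -0.34 in tumor 26043, -0.04 in 26044, -0.02 in 26048 and 0.37 in 26050. Their summed level was 1030.0, 1175, 1256 and 1627 FPKM in the same order. The higher sum in 26048 than in 26044 rested on Mad2l1, at 163 FPKM in 26048 and 30.2 FPKM in 26044, a larger gap than that between the sums. Triple-mutant tumor 26043 was thus the low end and double-mutant tumor 26050 the high end, and the triple-mutant tumor 26044 and the double-mutant tumor 26048 lay side by side between them.

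Gene by gene, tumor 26050 held the highest value for 31 of 42 members (73.8%), against 24.7% of all 12752 genes tested. Tumor 26043 held the lowest value for 26 members (61.9%), against 15.2% of all genes tested. For 20 members (47.6%) both were true, against 6.01% of all genes. With tumor 26043, 26044 or 26048 left out, 26050 was the highest of the remaining tumors for 32 to 35 members. With fewer tumors each is the highest more often, and the share of all genes is not given for these sets. Tumor 26044 was the highest for 6 members (24.2% of all genes), tumor 26048 for 4 (23.2%) and tumor 26043 only for Foxm1 (27.9%). The lowest value was in tumor 26044 for 6 members (39.0% of all genes), in 26048 for 8 (17.6%) and in 26050 for 2 (28.2%).

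Pairs of tumors show the spread within each genotype beside that between them. Between the 2 triple-mutant tumors the members differed by a median of 0.35 on the log2 scale, with 33 of 42 higher in 26044, whereas the median of all genes tested moved by -0.17. Between the 2 double-mutant tumors they differed by 0.38, with 36 of 42 higher in 26050 and a median of -0.05 over all genes. Across genotypes, the difference was 0.71 from 26043 to 26050 with 38 members higher in the latter, 0.41 from 26044 to 26050 with 35 higher, and 0.28 from 26043 to 26048 with 31 higher. From 26044 to 26048 it was 0.00, with 21 of 42 higher in 26048. The pairs 26043 to 26050 and 26044 to 26050 thus differed more than both pairs within a genotype. The pairs 26043 to 26048 and 26044 to 26048 differed less. The median genotype difference given next is between means of 2 tumors and cannot be set directly beside these pairs of single tumors.

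**Figure D1:**
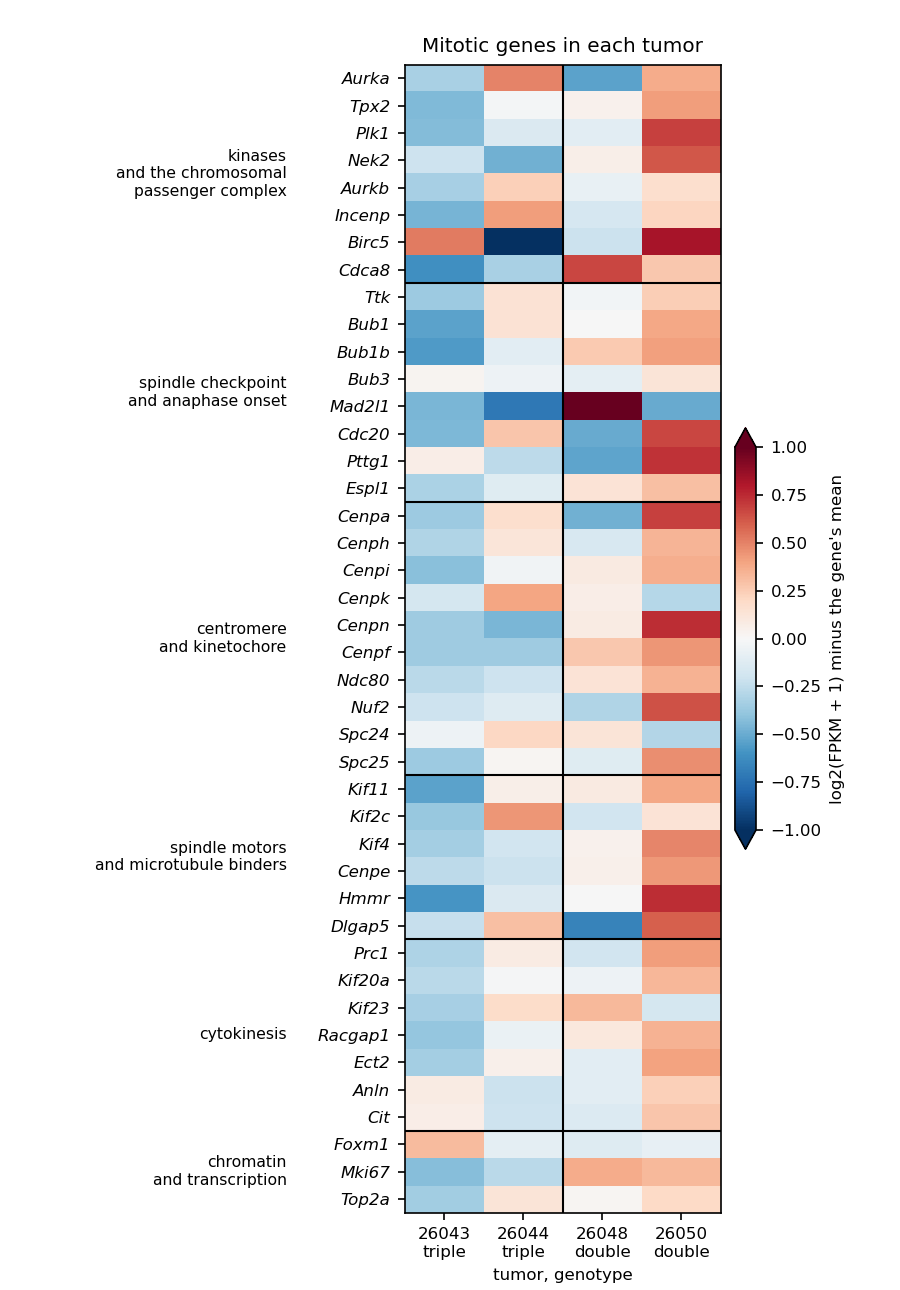
Level of each of the 42 mitotic genes (rows, grouped by role) in the 4 tumors (columns, triple-mutant left of the black line and double-mutant right of it), as log2(FPKM + 1) minus the gene's mean, with red above and blue below the mean and the scale ending at -1 and 1. Tumor 26043 is blue for most rows, tumor 26050 red for most rows (highest for 31 of 42), and Birc5 and Mad2l1 break the order.

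To ask whether loss of Rank went with a different level of the mitotic genes, triple-mutant and double-mutant tumors were compared by limma across all genes tested. No member passed an adjusted p of 0.05, and neither did any of the 12752 genes (0.0%). At an unadjusted p under 0.05, limma gave 2 members lower in the triple-mutant tumors, Cdca8 and Mki67, against 3.91% of all genes (498), and no member higher, against 5.91% of all genes (754). An exact permutation test of 2 against 2 tumors cannot give a p below 0.333.

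As a description, the log2 fold change (triple-mutant minus double-mutant) was below 0 for 36 of 42 members (85.7%), against 51.6% of all genes, and its median was -0.31 against -0.02 over all genes. For 16 members (38.1%) both triple-mutant values lay under both double-mutant values, against 22.9% of all genes, and for no member did both lie above, against 21.3% of all genes. For 13 members (31.0%) the genotype difference was larger than both differences within a genotype, and all of them were lower in the triple-mutant tumors. The share of all genes was 29.6% with both directions counted, and was not taken for the lower direction alone. The median rested on tumor 26050: without it the median was -0.09, and without tumor 26043 it was -0.22. It was -0.49 without tumor 26044, the tumor with few epithelial transcripts, and -0.58 without tumor 26048.

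**Figure D2:**
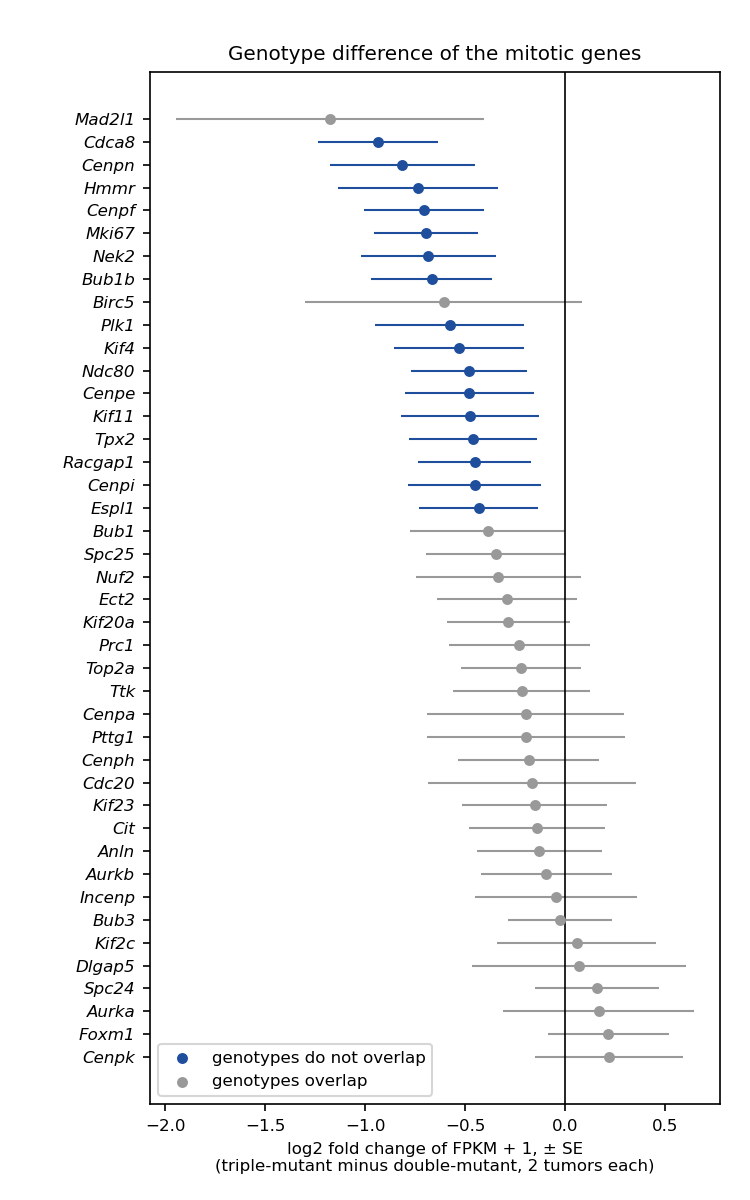
Log2 fold change of FPKM + 1 for each of the 42 genes (triple-mutant minus double-mutant, 2 tumors each), with bars of 1 standard error from limma. Blue points are the 16 members whose genotypes did not overlap, all of them below 0, and grey points are the members whose genotypes overlapped.

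The promoters of the members share letters that the choice of genes did not use. A pair of motifs was searched on both strands from 250 bases before to 50 bases after the annotated start in RefSeq (build GRCm38.p6, the same assembly as the mm10 of the deposited tables): the cell cycle homology region, TTTGAA or TTCGAA, which the MuvB complex binds, and the CCAAT box, CCAAT, which the factor NF-Y binds. A homology region and a CCAAT box can share at most 1 base, and CCAAT boxes on opposite strands can share 2. A promoter was matched for 35 of 42 members, and not for Aurkb, Tpx2, Incenp, Spc24, Kif20a, Foxm1 and Dlgap5. The cell cycle homology region was present in 25 of 35 (71.4%), against 13.2% of the 9028 promoters of tested genes, and CCAAT in 27 of 35 (77.1%), against 38.9%. Both were found in 22 of 35 (62.9%), against 5.64%, and at least 2 CCAAT boxes in 16 (45.7%), against 15.0%. Neither motif was found in the windows of Birc5, Mad2l1, Nuf2, Pttg1 and Cit. The start used lay 247 bases from the 5′ end of the deposited locus for Mad2l1, 267 for Pttg1 and 3852 for Kif2c. The windows of these members did not cover that end.

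The stretches below show this arrangement upstream of the start, written 5′ to 3′ on the strand of the gene, with capitals marking the cell cycle homology region and the CCAAT box in either direction (ATTGG and TTCAAA are their reverse complements). They were chosen for a cell cycle homology region upstream of the start, with Mad2l1 as a member that has neither motif in the window searched. The upstream layout does not hold for all members with the region. In Anln, Aurka, Bub1, Cdca8, Cenpa, Cenpf, Hmmr, Kif23, Kif4, Ndc80, Plk1, Racgap1, Spc25 and Ttk it was found only after the start. The Cdc20 stretch is chr4:118437344-118437423 on the minus strand, Kif11 is chr19:37376302-37376381 on the plus strand, Prc1 is chr7:80294396-80294475 on the plus strand and Espl1 is chr15:102296213-102296292 on the plus strand, each holding the last 80 bases before the start. Top2a is chr11:99024190-99024309 on the minus strand, the last 120 bases. Mki67 is chr7:135716460-135716579 on the minus strand, from base -200 to base -81. Mad2l1 is chr6:66535141-66535220 on the plus strand, the last 80 bases.
Cdc20: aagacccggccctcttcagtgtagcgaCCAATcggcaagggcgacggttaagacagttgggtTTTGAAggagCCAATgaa
Kif11: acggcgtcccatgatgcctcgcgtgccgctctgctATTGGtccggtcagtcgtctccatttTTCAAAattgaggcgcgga
Prc1: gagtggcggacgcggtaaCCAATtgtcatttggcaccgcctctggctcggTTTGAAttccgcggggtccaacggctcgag
Espl1: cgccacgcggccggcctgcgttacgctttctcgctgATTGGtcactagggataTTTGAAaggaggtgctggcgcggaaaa
Top2a: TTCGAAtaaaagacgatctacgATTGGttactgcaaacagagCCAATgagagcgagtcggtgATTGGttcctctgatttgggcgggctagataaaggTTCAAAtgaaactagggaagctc
Mki67: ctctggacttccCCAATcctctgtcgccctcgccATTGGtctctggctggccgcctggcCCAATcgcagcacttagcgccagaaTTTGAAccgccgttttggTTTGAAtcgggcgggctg
Mad2l1: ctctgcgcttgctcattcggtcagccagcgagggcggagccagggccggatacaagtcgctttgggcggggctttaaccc

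In Cdc20, Kif11, Prc1, Espl1, Top2a and Mki67 a CCAAT box lies on the far side of the homology region from the start, and Top2a and Mki67 hold 3 boxes each in the printed stretch. The members with both motifs followed the tumor order: 18 of 22 were highest in tumor 26050 and 17 of 22 lowest in 26043. The 13 other members with a promoter were highest in 26050 for 10 and lowest in 26043 for 5. Among the 487 tested genes outside the members with both motifs, 30.0% were highest in 26050 and 17.2% lowest in 26043, close to the 24.3% and 14.9% of the 8506 genes without both. A motif match is a description of letters and not of a bound site.

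Of the 8 kinase and chromosomal passenger genes, 7 had a log2 fold change below 0, with a group median of -0.52, and Tpx2, Plk1, Nek2 and Cdca8 did not overlap between genotypes. Plk1, the Polo-like kinase of centrosome maturation and mitotic exit, was at 35.3 and 43.3 FPKM in the triple-mutant tumors and at 44.6 and 77.5 FPKM in the double-mutant tumors. The upper triple-mutant and the lower double-mutant value nearly touched, and tumor 26050 stood alone at the top. The log2 fold change was -0.58 ± 0.37 (SE, n = 2 and 2, adjusted p = 0.642 by limma). Nek2, a kinase of centrosome separation, was at 18.5 and 15.1 FPKM against 22.4 and 33.6 FPKM, with a log2 fold change of -0.68 ± 0.34 (adjusted p = 0.569), and here too 26050 was the highest.

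Aurka, the Aurora kinase of the spindle poles, was the only gene of the group with a fold change above 0. It was at 31.4 and 56.2 FPKM in the triple-mutant tumors and at 27.0 and 51.5 FPKM in the double-mutant tumors, so each genotype held 1 high and 1 low tumor and the log2 fold change was 0.17 ± 0.48 (adjusted p = 0.921). Its activator at the spindle, Tpx2, did not share that pattern, with 18.4 and 24.9 FPKM against 26.04 and 34.0 FPKM and a log2 fold change of -0.46 ± 0.32 (adjusted p = 0.657). The gap between genotypes in Tpx2, from 24.9 to 26.04 FPKM, was smaller than the distance within either genotype.

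The chromosomal passenger complex, which corrects faulty attachments at the centromere, was not uniform among its 4 genes. Aurkb, its kinase, was at 27.7 and 41.7 FPKM against 33.3 and 39.7 FPKM, and Incenp, its scaffold, at 28.7 and 53.7 against 35.4 and 46.5 FPKM. Both were lowest in 26043 and highest in 26044, with log2 fold changes of -0.10 ± 0.33 and -0.05 ± 0.41. Cdca8 (borealin), which with survivin brings the complex to the centromere, was at 31.6 and 38.8 FPKM against 78.4 and 59.0 FPKM. Both triple-mutant tumors were well under both double-mutant tumors, the log2 fold change was -0.94 ± 0.30, and limma gave an unadjusted p of 0.0294 and an adjusted p of 0.48.

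Birc5 (survivin) went against the tumor order. It was at 131.8 and 41.3 FPKM in the triple-mutant tumors and at 78.6 and 163 FPKM in the double-mutant tumors, and its spread from lowest to highest, 3.94-fold, was exceeded among the members only by Mad2l1. Tumor 26044 was low and tumor 26043 high, the reverse of most members. The 159 tested genes within 5 Mb of Birc5 on chromosome 11 moved with it in part, with medians of 0.50, -0.50, -0.15 and 0.12 on the log2 scale in tumors 26043, 26044, 26048 and 26050. The log2 fold change of Birc5 was -0.61 ± 0.69 (adjusted p = 0.785), and without tumor 26044 it was 0.22.

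All 8 genes of the spindle checkpoint and anaphase onset had a log2 fold change below 0, with a group median of -0.30. Bub1b and Espl1 were lower in the triple-mutant tumors without overlap, a share of 25.0%, close to the 22.9% of all genes. Bub1b (BubR1), a part of the inhibitor that the checkpoint sends to the anaphase-promoting complex, was at 18.6 and 25.98 FPKM in the triple-mutant tumors and at 33.7 and 37.6 FPKM in the double-mutant tumors. Its log2 fold change was -0.67 ± 0.30 (adjusted p = 0.548). Espl1 (separase), the protease that frees the sister chromatids, was lower overall at 8.11 and 9.44 FPKM against 11.4 and 12.9 FPKM, with -0.43 ± 0.30 (adjusted p = 0.653).

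Cdc20, the activator of the anaphase-promoting complex and the target of the checkpoint, split each genotype. It was at 70.6 and 118 FPKM in the triple-mutant tumors and at 67.9 and 154 FPKM in the double-mutant tumors, so the low tumor of each genotype was at about the same level. The log2 fold change was -0.17 ± 0.52 (adjusted p = 0.925), and without tumor 26050 it was 0.42. Pttg1 (securin), the inhibitor of separase, was likewise lowest in 26048 at 40.4 FPKM and highest in 26050 at 97.6 FPKM, with the triple-mutant tumors at 61.5 and 48.9 FPKM between them.

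Bub3, which docks the checkpoint kinases on the kinetochore, was the most even member. It lay between 69.4 and 81.4 FPKM in all 4 tumors, a range of 1.17-fold, and its log2 fold change was -0.02 ± 0.26 (adjusted p = 0.98). The checkpoint kinases Ttk (Mps1) and Bub1 were both lowest in 26043 and highest in 26050, Ttk from 7.59 to 12.1 FPKM and Bub1 from 6.32 to 12.9 FPKM. For both, tumor 26044 lay above tumor 26048, so the genotypes overlapped.

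Mad2l1 (Mad2), the checkpoint protein that is converted at unattached kinetochores into a Cdc20 inhibitor, had the most negative fold change of the 42 genes and owed it to 1 tumor. It was at 36.3 and 30.2 FPKM in the triple-mutant tumors and at 163 and 35.1 FPKM in the double-mutant tumors, so tumor 26048 stood alone and tumor 26050 lay among the triple-mutant tumors. The log2 fold change was -1.18 ± 0.77 (adjusted p = 0.646), and without tumor 26048 it was -0.08. Genes near Mad2l1 (chr6:66535468-66540991, mm10) were examined once this was seen. Smarcad1, at a distance of -1.49 Mb, was 5.52 times as high in 26048 as the mean of the other tumors, and Gng12, Gadd45a and E230016M11Rik, at 0.36 to 0.50 Mb on the other side, were 6.50, 14.3 and 16.9 times as high. Gadd45a and E230016M11Rik overlap in position, so reads may be shared between them.

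Not every gene of the stretch was high in tumor 26048. Serbp1, 0.73 Mb from Mad2l1, was at 1.01 times the mean of the others. With the median of the tested genes within 1 Mb subtracted in each tumor, a treatment added after seeing the data, Mad2l1 had a log2 fold change of -0.78 ± 0.28 (adjusted p = 0.505). The number of copies of this stretch was not measured.

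**Figure D3:**
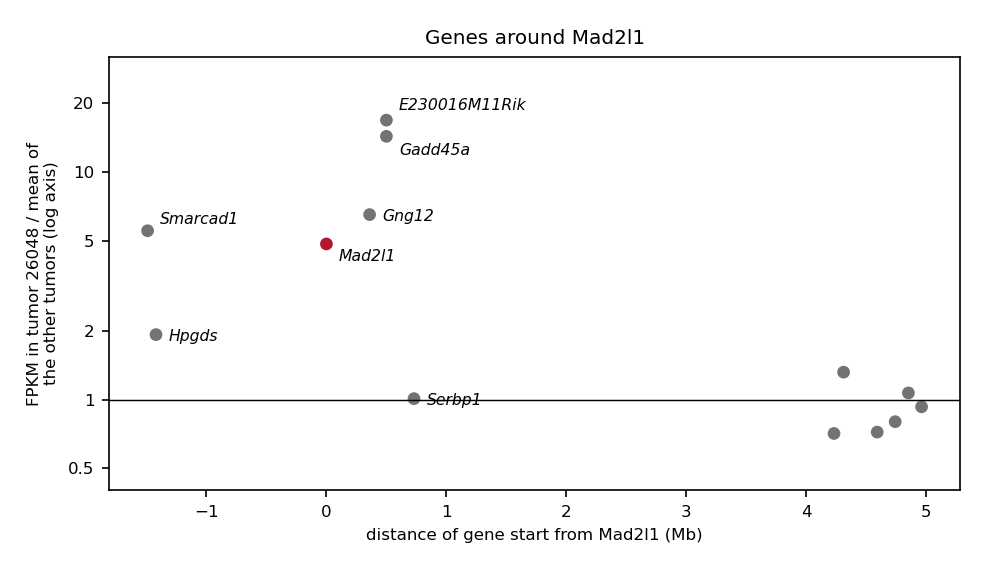
FPKM in tumor 26048 over the mean of the 3 other tumors (log axis) for genes against the distance of their start from that of Mad2l1 in Mb, with Mad2l1 in red and the line at equal levels. Mad2l1 (4.83 times) and 5 of its neighbours lie above the line by at least 1.93 times, and Serbp1 lies on it. Not all tested genes of the window are drawn, among them Foxi3, which is at 0 FPKM in 26048.

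Of the 10 centromere and kinetochore genes, 8 had a log2 fold change below 0, with a group median of -0.34. In 4 (40.0%, against 22.9% of all genes) the triple-mutant tumors were lower without overlap. Cenpf, a large coiled-coil protein of the outer kinetochore, was at 5.29 and 5.30 FPKM in the triple-mutant tumors and at 8.67 and 9.89 FPKM in the double-mutant tumors. The triple-mutant tumors agreed to within 0.01 FPKM, and the log2 fold change was -0.70 ± 0.30 (adjusted p = 0.535). The FPKM of Cenpf lay outside the interval that Cufflinks gave for it in all 4 tumors, and the midpoints of those intervals were 10.9, 10.6, 14.5 and 16.4 FPKM, higher but in the same order of genotypes.

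Cenpn, which reads the centromeric nucleosome, was at 6.81 and 6.25 FPKM against 9.53 and 15.6 FPKM and had the most negative fold change of the group, -0.81 ± 0.36 (adjusted p = 0.543). Cenpi, of the constitutive centromere network, was at 5.17 and 7.002 FPKM against 7.72 and 9.58 FPKM, a log2 fold change of -0.45 ± 0.33 (adjusted p = 0.674). In both, tumor 26050 was the highest. The centromeric histone itself, Cenpa, did not separate the genotypes, at 54.8 and 79.9 FPKM against 50.5 and 114 FPKM.

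The 4 subunits of the NDC80 complex, the main grip of the kinetochore on the microtubule, did not move as one. Ndc80 was at 8.96 and 9.41 FPKM in the triple-mutant tumors and at 12.2 and 14.3 FPKM in the double-mutant tumors, with no overlap and a log2 fold change of -0.48 ± 0.29 (adjusted p = 0.625). Its direct partner Nuf2 was at 15.6 and 16.5 FPKM against 14.5 and 28.8 FPKM, so that only tumor 26050 stood out. Spc25 was at 18.4 and 24.2 FPKM against 21.9 and 33.4 FPKM, while its partner Spc24 was at 21.8 and 26.4 FPKM against 24.9 and 18.3 FPKM. Spc24 was thus lowest in the tumor where the other subunits were highest, and its log2 fold change was 0.16 ± 0.31 (adjusted p = 0.878).

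Cenpk, a further protein of the constitutive network, was the other member that was lowest in tumor 26050. It was at 6.20 and 9.74 FPKM in the triple-mutant tumors and at 7.54 and 5.69 FPKM in the double-mutant tumors, and its log2 fold change of 0.22 ± 0.37 (adjusted p = 0.855) was the highest of the group. Cenph, its partner in the same network, was instead highest in 26050 at 15.8 FPKM and lowest in 26043 at 9.77 FPKM, with tumors 26044 and 26048 at 13.4 and 10.9 FPKM.

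The 6 spindle motors and microtubule binders had a group median log2 fold change of -0.48. In 4 of them (66.7%, against 22.9% of all genes) the triple-mutant tumors were lower without overlap. Hmmr, a microtubule-binding protein of the spindle poles, was at 7.83 and 11.02 FPKM in the triple-mutant tumors and at 12.3 and 21.2 FPKM in the double-mutant tumors. Tumor 26050 was far above the others, and the log2 fold change was -0.74 ± 0.40 (adjusted p = 0.595). Cenpe, the kinesin that carries chromosomes to the spindle equator, was at 5.58 and 5.78 FPKM against 7.16 and 9.63 FPKM, a fold change of -0.48 ± 0.32 (adjusted p = 0.648).

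Kif4, a kinesin of chromosome arms and the central spindle, was at 7.24 and 8.13 FPKM against 9.75 and 13.6 FPKM, with -0.53 ± 0.33 (adjusted p = 0.628). The annotation lists a processed pseudogene of it, Kif4-ps, and reads that fit both cannot be told apart here. Kif11, the kinesin that pushes the spindle poles apart, was at 12.9 and 19.97 FPKM against 20.4 and 25.4 FPKM, with -0.48 ± 0.35 (adjusted p = 0.672). For Kif11 the genotypes were held apart by 19.97 and 20.4 FPKM only, and they overlapped under 4 of the alternative treatments of the data.

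The remaining 2 genes of this group overlapped and lay close to 0. Kif2c (MCAK), a kinesin that takes microtubules apart at the centromere, was at 14.0 and 25.4 FPKM in the triple-mutant tumors and at 16.0 and 20.5 FPKM in the double-mutant tumors, with a log2 fold change of 0.06 ± 0.40. Dlgap5 (HURP), which stabilizes the fibres that reach the kinetochores, was at 8.92 and 13.3 FPKM against 6.32 and 16.6 FPKM, with 0.07 ± 0.54. The 2 double-mutant tumors were thus the lowest and the highest for Dlgap5.

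All 7 cytokinesis genes had a log2 fold change below 0, with a group median of -0.23. Racgap1 alone was lower in the triple-mutant tumors without overlap, a share of 14.3%, under the 22.9% of all genes. Racgap1, which with the kinesin Kif23 forms the centralspindlin complex, was at 39.4 and 49.4 FPKM in the triple-mutant tumors and at 55.6 and 66.3 FPKM in the double-mutant tumors. Its log2 fold change was -0.45 ± 0.28 (adjusted p = 0.632). Kif23, its partner, was at 12.6 and 18.4 FPKM against 20.5 and 14.2 FPKM, so the double-mutant tumors stood in the opposite order to that in Racgap1.

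Prc1, Ect2 and Kif20a were lowest in 26043 and highest in 26050, whereas Anln and Cit were not lowest in 26043. Prc1, which bundles the microtubules of the central spindle, ran from 23.7 FPKM in 26043 to 40.0 FPKM in 26050. Ect2, the exchange factor that activates RhoA at the cleavage site, ran from 9.50 to 16.5 FPKM in the same tumors, and Kif20a, a kinesin of the central spindle, from 16.6 to 25.8 FPKM. Anln (anillin), a scaffold of the contractile ring, lay between 13.5 and 18.7 FPKM with a log2 fold change of -0.13 ± 0.31 (adjusted p = 0.905). Cit, a kinase of the midbody, had the lowest level of all 42 genes, between 2.65 and 4.10 FPKM. Both Anln and Cit were lowest in 26044.

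The 3 chromatin and transcription genes differed among themselves. Mki67, which coats mitotic chromosomes, was at 22.5 and 25.1 FPKM in the triple-mutant tumors and at 39.9 and 38.5 FPKM in the double-mutant tumors. The tumors of each genotype lay close together and the genotypes did not overlap. The log2 fold change was -0.70 ± 0.26, with an unadjusted p of 0.0495 and an adjusted p of 0.508 by limma, and it stayed between -0.77 and -0.62 when each tumor was left out in turn. The FPKM of Mki67 lay outside its own interval in all 4 tumors. With the interval midpoints, at 41.5 and 40.4 FPKM against 59.3 and 57.3 FPKM, its fold change was -0.50 ± 0.24 (adjusted p = 0.591). These are transcript levels. By staining of Ki67 protein, the study found proliferation to be comparable between tumors of the genotypes. By histology it described high-grade tumors, with higher mitotic rates, only in double-mutant mice, whose other tumors were of intermediate grade. Triple-mutant tumors were of intermediate grade, with a low to moderate mitotic rate. Which grade the sequenced tumors had is not given. The study's gene set analysis placed mitotic spindle and other cell cycle sets higher in the double-mutant tumors.

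Top2a, the topoisomerase that untangles sister chromatids, did not follow Mki67. It was at 43.4 and 60.6 FPKM against 56.3 and 63.8 FPKM, so that only tumor 26043 was low, and its log2 fold change was -0.22 ± 0.30 (adjusted p = 0.817). Foxm1, the transcription factor of the mitotic genes, was the only member highest in tumor 26043. It was at 24.6 and 18.1 FPKM against 17.7 and 18.3 FPKM, with 3 tumors within 1 FPKM of each other and a log2 fold change of 0.22 ± 0.30 (adjusted p = 0.82). The tumor with the lowest levels of the mitotic genes was thus the one with the most Foxm1 transcript.

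Other genes of the pathway were taken from lists fixed by function. Of 111 further mitotic genes, none passed the adjusted threshold, 79 had a log2 fold change below 0 with a median of -0.18, and 61 (55.0%, against 24.7% of all genes) were highest in tumor 26050. The genotypes did not overlap in 34 of them (30.6%, against 22.9% of all genes) with the triple-mutant tumors lower and in 10 (9.01%, against 21.3%) with them higher. By function, tumor 26050 was the highest for 13 of 20 cohesin and condensin genes, 18 of 30 further kinetochore genes, 20 of 33 further spindle and cytokinesis genes, 5 of 10 genes of mitotic entry and 5 of 18 genes of the anaphase-promoting complex. The anaphase-promoting complex was the list with the smallest median fold change, -0.02, equal to that of all genes tested at this rounding.

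The 3 genes with the largest absolute fold change in each list did not all point one way. Of the kinetochore genes, Cenpt, which links centromeric chromatin to the outer kinetochore, was at 10.4 and 5.46 FPKM against 17.9 and 25.2 FPKM (triple-mutant first), with a log2 fold change of -1.37 ± 0.42 and an adjusted p of 0.476. Zw10, of the complex that brings dynein to the kinetochore, owed its -2.02 ± 1.32 to tumor 26050 alone, and the centromere gene Cenpw its 1.32 ± 0.76 to tumor 26044 alone. Outside the choice by size, Cenpm, of the constitutive centromere network, was the further mitotic gene that limma gave as higher in the triple-mutant tumors at an unadjusted p under 0.05, at 28.2 and 34.9 against 13.6 and 18.2 FPKM, with 0.95 ± 0.31 and an adjusted p of 0.481.

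Of the cohesin and condensin genes, the cohesin protector Sgo2a was at 4.78 and 5.95 against 9.13 and 13.0 FPKM, with -0.91 ± 0.34 and an adjusted p of 0.508, and the cohesin subunit Smc1a and the condensin subunit Ncapg2 had -0.61 ± 0.32 and -0.60 ± 0.39. In these 3 genes both triple-mutant tumors lay under both double-mutant tumors. Of the spindle and cytokinesis genes, Cdkn3, a phosphatase that acts on Cdk1, had 0.98 ± 0.61 and the importin Kpna2 -0.80 ± 0.48, both with overlap, while Kif14, a kinesin of cytokinesis, was at 2.31 and 2.77 against 4.97 and 5.16 FPKM without overlap, with -0.78 ± 0.30 and an adjusted p of 0.516. In the anaphase-promoting complex, Anapc10 had -0.61 ± 0.33 and Anapc7 0.51 ± 0.37, and the RING subunit Anapc11 was at 29.99 and 30.5 against 19.6 and 20.2 FPKM, with 0.58 ± 0.26 and an adjusted p of 0.547. Of the genes of mitotic entry, Cdk1 had 1.08 ± 0.76 with tumor 26044 alone high, Mastl, the kinase that restrains the phosphatase opposing Cdk1, had -0.60 ± 0.35, and Wee1, an inhibitor of Cdk1, had -0.49 ± 0.33.

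The genes of MuvB, DREAM and related factors, among them Nfya, Nfyb and Nfyc of NF-Y, differed little between tumors as a list. The 14 genes had medians between -0.13 and 0.05 in the 4 tumors and a median fold change of -0.07. Foxm1 is counted among the members and is not in this list. Lin9, a core subunit of MuvB, had the largest fold change of the list, at 5.43 and 5.18 FPKM in the triple-mutant tumors and at 10.3 and 14.6 FPKM in the double-mutant tumors, with a log2 fold change of -1.07 ± 0.33 and an adjusted p of 0.478. Mybl2 (B-Myb), which joins MuvB in cycling cells, was highest in 26044 at 27.3 FPKM and lay between 11.7 and 16.8 FPKM in the others, with 0.52 ± 0.41, and Rbl1 (p107), of DREAM, had 0.55 ± 0.36.

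Genes of DNA replication, used earlier in the cycle, shared the high tumor but not the low one. Of 35 replication genes, 26 were highest in tumor 26050, but the lowest tumor was 26044 for 21 of them and 26043 for 8, whereas the mitotic genes were lowest in 26043 for 26 and in 26044 for 6. Their median levels in tumors 26043, 26044, 26048 and 26050 were -0.11, -0.23, -0.04 and 0.35 on the log2 scale. The mitotic median minus the replication median was -0.23 in 26043 and 0.19 in 26044, and 0.02 in each double-mutant tumor. In 18 of 35 replication genes (51.4%, against 22.9% of all genes) the genotypes did not overlap with the triple-mutant tumors lower, and in 2 (5.71%, against 21.3%) with them higher. The largest fold changes were those of Rrm2, the inducible subunit of ribonucleotide reductase, with -1.55 ± 0.50, and of the helicase subunits Mcm5 and Mcm6, with -0.98 ± 0.44 and -0.93 ± 0.35.

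**Figure D4:**
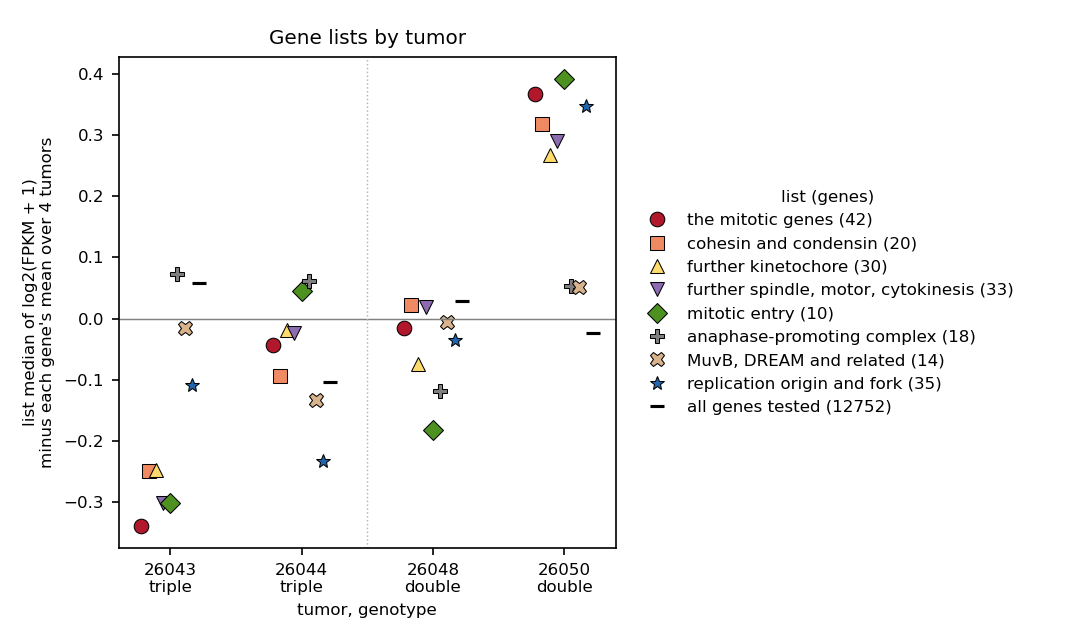
Median of log2(FPKM + 1) minus each gene's mean over the 4 tumors, by tumor. Shown are the 42 mitotic genes, 5 further mitotic lists, the MuvB, DREAM and related factors, 35 replication genes and all 12752 genes tested. The mitotic genes run from -0.34 in tumor 26043 to 0.37 in tumor 26050, the replication genes are lowest in 26044 at -0.23, and all genes tested stay between -0.10 and 0.06.

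The genes around the members did not show the tumor order. Each member had 13 to 200 tested genes within 5 Mb, and the median of those neighbours was highest in tumor 26050 for 10 of 42 members. Over the 42 members the neighbours had medians of 0.01, -0.07, 0.01 and 0.02 in tumors 26043, 26044, 26048 and 26050. With the neighbours' median subtracted tumor by tumor, 33 of 42 members were highest in 26050, for which the share of all genes is not given. Under this treatment 11 did not overlap between genotypes with the triple-mutant tumors lower (21.4% of all genes).

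A limit of the values comes from the deposited tables. For 99 of the 168 member values (58.9%) the FPKM lay outside the interval that Cufflinks gave for it, as it did for 43.6% to 51.1% of the values of all genes tested. For 9 members the midpoint was over 1.5 times the FPKM in at least 1 tumor (Cenph, Cenpf, Ndc80, Nuf2, Kif11, Cenpe, Hmmr, Mki67 and Top2a), with a highest ratio of 2.25 in Cenpe. With the interval midpoints in place of the FPKM values, 28 of 42 members were highest in tumor 26050, for which the share of all genes is not given. With the midpoints 13 did not overlap between genotypes with the triple-mutant tumors lower (19.5% of all genes). Under all 9 treatments of the data that keep the 4 tumors, 6 members (14.3%, against 10.1% of all genes) had both triple-mutant tumors under both double-mutant tumors. They were Cdca8, Bub1b, Cenpf, Ndc80, Cenpe and Mki67. The 9 include the main setting, and those that change only the pseudocount or the filter cannot alter the order of a gene's values.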

How the data were processed

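PolyA RNA of 4 tumors was sequenced with strand-marked (dUTP) libraries and single-end 50-bp reads. The authors aligned the reads to mm10 with TopHat2 2.0.10 and Bowtie 0.12.9 and estimated FPKM per gene with Cufflinks 2.1.1, and these deposited FPKM values, with their intervals, were used. The submitters also counted reads with HTSeq and tested them with DESeq2 1.6.2, and those counts were not used here. Depth is unknown, since the low FPKM values did not show steps of whole reads.

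The 4 tables held 23746 rows and were joined on symbol and locus. Genes that reached 1 FPKM in 2 or more tumors (12752) were tested on log2(FPKM + 1) with limma 3.58.1 in R 4.3.3 (eBayes with a trend, two-sided, Benjamini-Hochberg over all genes tested, threshold 0.05). A fold change on this scale understates that of low genes. Each tumor is taken as 1 mouse, as the labels give 1 number each. The fit was checked on simulated data with the same spread for every gene and with changes larger than those of the members. The check therefore does not show how the fit performs for changes of their size.

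The mitotic genes, the other lists and the markers were chosen with earlier results of these data known, so no p-value over a list is given. Values in full are given for members whose genotypes do not overlap, for the largest and smallest fold change of each group, and for Mki67, Top2a, Foxm1, Plk1, Aurka, Aurkb and Cdc20, and for up to 3 genes with the largest absolute fold change of each other list. Some further values, among them those of Cenpm and of the genes around Mad2l1, were picked after seeing the data. A few genes of these lists and windows are not reported here. Levels were taken per gene and cannot separate isoforms. Promoter sequences are from RefSeq (GRCm38.p6), with the first base of the transcript as base 1 and the base before it as base -1.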

Additional observations from a re-analysis of the deposited data

How the results depend on the processing

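No member passed an adjusted p of 0.05 under any alternative, and over all genes tested limma called 6 after quantile normalization, 5 without the trend and 1 with interval midpoints. No paired analysis was possible because the tumor numbers of the genotypes are not shared. The median fold change of the members lay between -0.35 and -0.22 under the alternatives that keep 4 tumors (-0.34 with each tumor centred on the median of the genes tested, which was added after seeing the data), and between -0.58 and -0.09 when 1 tumor was left out. Members without overlap numbered 11 to 20 with the triple-mutant tumors lower (16.2% to 25.7% of all genes), and at most 1 with them higher (16.5% to 23.0% of all genes), which was 1 after quantile normalization and after centring. With 1 tumor left out they numbered 18 to 33 lower, where 31.9% to 45.1% of all genes did not overlap, and 1 to 8 higher, where 30.8% to 40.2% did not.

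The sign of the fold change was held by 21 of 42 members under every alternative. With interval midpoints it became positive for Bub3 (0.051), Cenph (0.10), Kif23 (0.012), Anln (0.059) and Top2a (0.042). With the local median within 5 Mb subtracted it changed for Aurka (-0.19), Pttg1 (0.19), Nuf2 (0.12), Spc24 (-0.066), Kif2c (-0.017), Dlgap5 (-0.29), Kif23 (0.087) and Foxm1 (-0.067). The cause was not tested. With 1 tumor left out the sign changed for 20 members, for 12 of them without tumor 26050. Their ranges were -0.30 to 0.042 for Anln, -0.29 to 0.62 for Aurka, -0.38 to 0.19 for Aurkb, -1.43 to 0.22 for Birc5, -0.14 to 0.089 for Bub3, -0.75 to 0.42 for Cdc20, -0.78 to 0.38 for Cenpa, -0.43 to 0.065 for Cenph, -0.07 to 0.51 for Cenpk, -0.35 to 0.063 for Cit, -0.57 to 0.70 for Dlgap5, -0.49 to 0.40 for Incenp, -0.41 to 0.11 for Kif23, -0.35 to 0.47 for Kif2c, -0.81 to 0.14 for Nuf2, -0.54 to 0.077 for Prc1, -0.82 to 0.43 for Pttg1, -0.051 to 0.37 for Spc24, -0.46 to 0.015 for Top2a and -0.47 to 0.037 for Ttk. With 2 tumors a genotype, the lone tumor of a left-out fit is assumed to vary like the other genotype.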

Other observations

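A few mitotic genes outside the 42 were high in a single tumor, and they were noticed after their values were seen. Zw10, a subunit of the complex that brings dynein to the kinetochore, was at 194 FPKM in tumor 26050 and at 9.70 to 13.9 FPKM in the others, and its 10 tested neighbours within 1 Mb had a median of 2.08 on the log2 scale above their mean in the same tumor. Cdk1, the kinase that starts mitosis, was at 216 FPKM in tumor 26044 and at 37.6 to 65.3 FPKM in the others, and its 4 tested neighbours within 1 Mb had a median of 1.06 in that tumor. Cenpw, a centromere protein, and Zwint, a kinetochore protein that binds the checkpoint complexes, are also on chromosome 10 and were also highest in tumor 26044, at 46.2 and 91.4 FPKM against at most 12.7 and 22.1 FPKM. The neighbours of Cenpw had a median of 1.19 in that tumor, and Zwint had no tested neighbour within 1 Mb. Copy number was not measured in these tumors.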
